A study of Mus musculus with 18 samples.

Results

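The Ifit family (interferon-induced proteins with tetratricopeptide repeats) was followed in L929 cells through the 4 members Ifit1 (ENSMUSG00000034459), Ifit2 (ENSMUSG00000045932), Ifit3 (ENSMUSG00000074896) and Ifit3b (ENSMUSG00000062488), which were picked by gene name from the 57180 genes of the deposited table. L929 is an established line of wild-type mouse fibroblasts, so every group came from 1 line. Total RNA was sequenced in 6 groups of 3 independent cultures each. The groups were Mock (DMSO), AOA, AOA+Asp, HT-DNA, HT-DNA+AOA and HT-DNA+AOA+Asp, and no group received aspartate by itself. The aminotransferase inhibitor AOA (aminooxyacetic acid) was given at 0.5 mM for 1 h before stimulation, aspartate at 20 mM, and HT-DNA (herring testis DNA, which the cytosolic sensor cGAS detects after transfection) at 0.5 µg/ml for 6 h with Lipofectamine 2000. Whether Mock, AOA and AOA+Asp cells received the transfection reagent without DNA was not given in the sources used here. The design asks how blocking aminotransferases alters the response to cytosolic DNA and whether added aspartate undoes that change.

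Ifit genes are among the most strongly induced interferon-stimulated genes in fibroblasts. They are switched on by ISGF3, a transcription factor complex that type I interferon activates through its receptor, and directly by Irf3, the factor that cGAS and STING signaling activates through the kinase Tbk1. Ifit1 binds RNA whose cap lacks the methylation that marks the cell's own messages and blocks its translation, Ifit2 is linked to antiviral defense and apoptosis, Ifit3 is a partner of the other Ifit proteins, and Ifit3b is a close copy of Ifit3. Protein annotation in the deposited table gave all 4 members a tetratricopeptide repeat domain and the term cellular response to interferon-alpha, and listed RNA binding for Ifit1 alone among them.

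The sequence before each start is shown because it differed between Ifit2 and the other members. RefSeq promoter sequences (GRCm38.p6) were found for all 4 members, all on the forward strand of chromosome 19, in windows of the 250 bases before the start. The core of the interferon-stimulated response element, the site that ISGF3 and Irf factors bind, was searched on both strands as GAAANNGAAA, and capitals mark every match.
Ifit1, chr19:34640639-34640888: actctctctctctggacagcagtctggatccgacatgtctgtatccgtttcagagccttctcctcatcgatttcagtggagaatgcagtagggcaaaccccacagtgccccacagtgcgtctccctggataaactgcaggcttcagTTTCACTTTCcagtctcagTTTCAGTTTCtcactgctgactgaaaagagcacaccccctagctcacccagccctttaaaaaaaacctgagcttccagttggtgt
Ifit3, chr19:34583279-34583528: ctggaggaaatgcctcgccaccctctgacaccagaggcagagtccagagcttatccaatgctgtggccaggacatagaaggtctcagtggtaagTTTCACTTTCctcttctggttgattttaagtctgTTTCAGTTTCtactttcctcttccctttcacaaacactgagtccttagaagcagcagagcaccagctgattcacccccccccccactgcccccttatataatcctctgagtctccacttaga
Ifit3b, chr19:34607707-34607956: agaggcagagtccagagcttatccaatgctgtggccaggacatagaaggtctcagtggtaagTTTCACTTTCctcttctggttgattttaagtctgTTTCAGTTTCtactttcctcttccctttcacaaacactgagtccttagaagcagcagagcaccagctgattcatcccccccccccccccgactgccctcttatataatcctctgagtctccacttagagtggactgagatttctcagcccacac
Ifit2, chr19:34550444-34550693: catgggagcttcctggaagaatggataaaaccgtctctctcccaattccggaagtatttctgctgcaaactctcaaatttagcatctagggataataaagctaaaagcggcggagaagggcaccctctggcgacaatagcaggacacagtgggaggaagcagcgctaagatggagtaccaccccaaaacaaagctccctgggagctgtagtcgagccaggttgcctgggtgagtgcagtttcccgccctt
The windows of Ifit1, Ifit3 and Ifit3b each held 2 matches, which did not overlap, and the Ifit2 window held 0. A second RefSeq window of Ifit2, before another start at chr19:34550838-34551087, also held 0. The letters of the matches were the same in the 3 genes and in the same order, TTTCACTTTC farther from the start and TTTCAGTTTC nearer to it, which read GAAAGTGAAA and GAAACTGAAA on the opposite strand. They lay 95 to 104 and 76 to 85 bases before the start of Ifit1, 147 to 156 and 113 to 122 bases before Ifit3, and 179 to 188 and 145 to 154 bases before Ifit3b. The windows of Ifit3 and Ifit3b were 96.4% identical over 224 aligned bases. Among all 27025 genes with a RefSeq promoter, 3.46% held at least 1 match in a window and 0.21% held at least 2. In the interferon pathway list described further on, 8 of the 25 genes with a RefSeq promoter held a match. Among the 6 neighbours of the cluster, 0 did. Isg15 held 3 matches and Stat2 held 1, and Ifna2 and Ifna4, which had at most 2 counts in any library, held 2 each. Oasl1, Oasl2, Irf7 and Irf9, all higher with HT-DNA than in Mock, held 0. Whether a match goes with the response was not tested. A match describes the letters of the window and not binding, and the lack of one in Ifit2 holds for these windows only. The window of Ifit1bl2, an Ifit1-like gene read from the other strand, shared 145 bases with that of Ifit1 and held the same 2 matches.

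**Figure D1:**
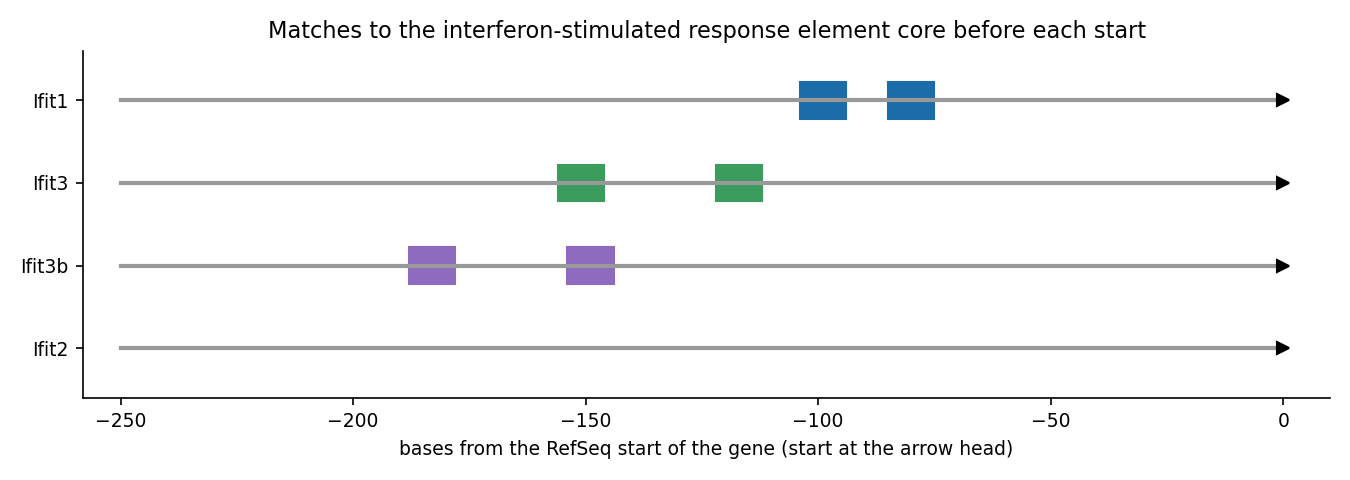
Matches to the interferon-stimulated response element core (boxes) in the 250 bases before the RefSeq start of each Ifit gene, with the distance from the start in bases on the horizontal axis and the start at the arrow head. Ifit1, Ifit3 and Ifit3b have 2 boxes each and Ifit2 has 0.

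Each library held 17901605 to 24057343 estimated counts. Levels are given as CPM, the count scaled by the effective library size after TMM normalization, with the SD of 3 libraries, and changes as log2 fold change with standard error (SE) from edgeR's quasi-likelihood test over the 14263 genes that passed the filter on low counts. All 4 members passed it. Ifit1, Ifit3 and Ifit3b had at most 12 counts in any library without HT-DNA, so they passed through the stimulated libraries where they were high. A gene was called when its Benjamini-Hochberg adjusted p-value over all genes tested was under 0.05. Statements that groups of libraries did not overlap describe the values only, since the share of all genes without overlap was not counted. Of 10 fibroblast markers, 9 had over 3 counts in some library, Lox was at 0 and Thy1, which marks many fibroblasts, was at most 0.0743 CPM in the group means. Of 9 leukocyte markers, Ptprc, Adgre1 and Cd3e were at 0 in every library and Cd68 stood between 114.2 and 143.9 CPM in the group means. Summed epithelial markers reached at most 0.337 CPM and summed endothelial markers at most 0.679 CPM. As bulk RNA was measured, fewer responding cells and less RNA per cell cannot be told apart.

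Without stimulation, Ifit2 was the only member with a sizeable level. In Mock libraries Ifit2 was at 16.2, 18.8 and 17.8 CPM, while Ifit1 was at 0.212, 0.18 and 0.427 CPM. Ifit3 was at 0.508, 0.135 and 0.475 CPM and Ifit3b at 0.127, 0.0901 and 0.0475 CPM in the same libraries, which is 1 to 3 counts per library for Ifit3b. Levels of different genes were compared only per length, as CPM per kb of GENCODE vM21 exon. Per kb, Ifit2 made up 92.5% ± 3.19 (SD, n = 3) of the summed level of the 4 genes in Mock, 88.3% ± 6.12 in AOA and 93.6% ± 1.25 in AOA+Asp. The sum itself was 4.85 CPM per kb ± 0.256 in Mock, 2.05 ± 0.263 in AOA and 4.39 ± 0.204 in AOA+Asp.

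**Figure D2:**
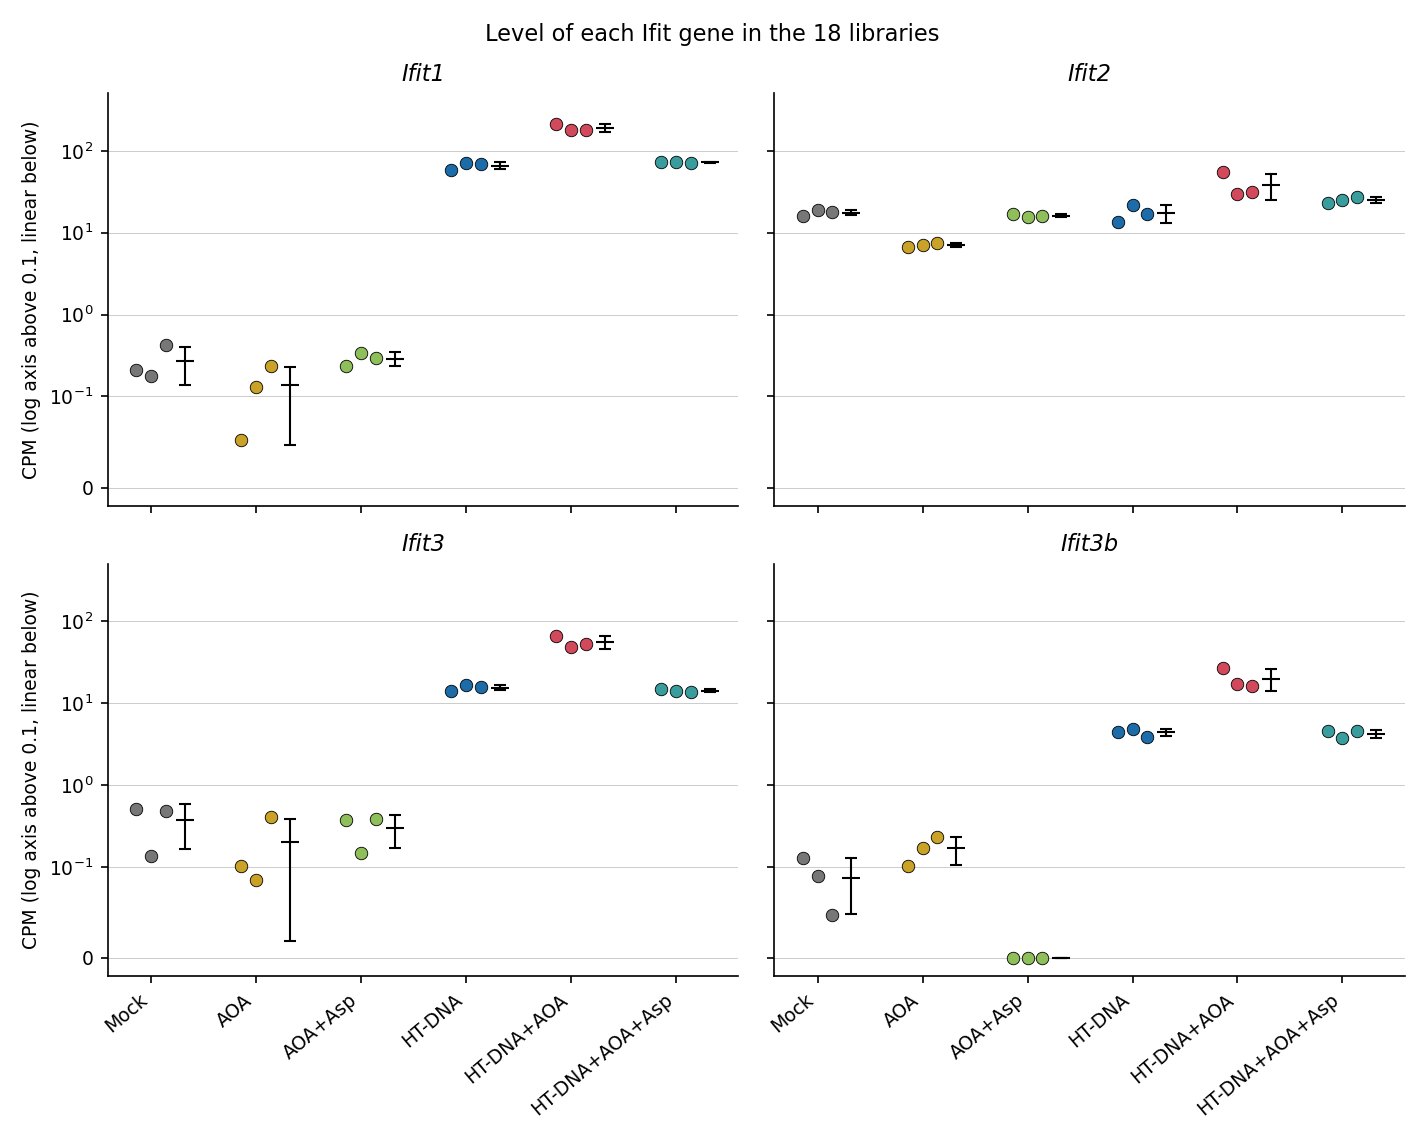
CPM of Ifit1, Ifit2, Ifit3 and Ifit3b (1 panel each) in every library of the 6 groups, on an axis that is logarithmic above 0.1 CPM and linear below, with the mean and SD of 3 libraries beside the points. Ifit1, Ifit3 and Ifit3b stand below 1 CPM in all libraries without HT-DNA, whereas Ifit2 stands at 6.73 to 18.8 CPM there.

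AOA alone lowered Ifit2 and aspartate brought it back. Ifit2 was at 6.73, 7 and 7.5 CPM in AOA and at 16.9, 15.7 and 15.8 CPM in AOA+Asp. The AOA libraries lay below every Mock and every AOA+Asp library. Ifit2 fell by 1.32 on the log2 scale with AOA against Mock (SE 0.204, edgeR adjusted p = 3.92e-05), and it rose by 1.19 with aspartate against AOA (SE 0.205, edgeR adjusted p = 0.000125). Of the 4 members, 1 was called lower with AOA, where 23.3% of all genes tested were called lower and 22.4% higher, a share so large that the single call is near the background. Aspartate against AOA called 23.5% of all genes higher and 22.8% lower.

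The other members had too few counts without HT-DNA for a firm statement. Ifit1 had 5, 4 and 9 counts in Mock, 1, 3 and 4 in AOA, and 5, 7 and 7 in AOA+Asp. Its log2 fold change with AOA was -0.98 (SE 0.53, edgeR adjusted p = 0.151). Ifit3 had 12, 3 and 10 counts in Mock and 2, 2 and 7 in AOA, a log2 fold change of -0.996 (SE 0.59, edgeR adjusted p = 0.179). Without the AOA library that had 7 counts (replicate 3), it was -1.93 and passed with an adjusted p of 0.0387, which made 2 members called. Ifit3b had 2, 4 and 4 counts in AOA and 0 in each AOA+Asp library, and it was called lower with aspartate (edgeR adjusted p = 0.0034). Its mean level in AOA was 1.23 times the limit that a count of 0 allows, 3 counts per library. That ratio leaves out the counting error of the 10 counts in AOA, so it is not a lower bound on the change. The Ifit3b call was lost when Ifit3 and Ifit3b were summed (log2 fold change -0.20, edgeR adjusted p = 0.784). It was also lost when only the AOA and AOA+Asp libraries were fitted, since Ifit3b then failed the filter. AOA+Asp against Mock called 2.52% of all genes higher and 3.95% lower. None of the 4 members was called by edgeR or by DESeq2, and 1 (Ifit3b) had an unadjusted p under 0.05.

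HT-DNA raised 3 of the 4 members, where 24.2% of all genes tested were called higher and 24% lower. Ifit1 was at 58.4, 70.1 and 69.3 CPM with HT-DNA, Ifit3 at 14.2, 16.5 and 15.6 CPM, and Ifit3b at 4.4, 4.83 and 3.89 CPM. Every stimulated library of these genes lay above every Mock library. Ifit1 rose by 7.90 on the log2 scale (SE 0.179, 240-fold, edgeR adjusted p = 1.82e-16) and Ifit3 by 5.35 (SE 0.258, 40.7-fold, edgeR adjusted p = 3.12e-11). These sizes are loose, since Mock libraries had at most 9 counts of Ifit1 and 12 of Ifit3. With 1 library left out, they were 7.69 to 8.35 for Ifit1 and 4.95 to 5.65 for Ifit3. Ifit3b was called higher too (edgeR adjusted p = 1.66e-08), but its fold rests on 6 counts over the 3 Mock libraries. Summed counts gave a ratio of 48.6 with an exact 95% counting interval of 22.04 to 133.5, which covers counting error only. Ifit2 was at 13.4, 21.9 and 16.8 CPM with HT-DNA, in the midst of its Mock values, and its log2 fold change was -0.02 (SE 0.186, edgeR adjusted p = 0.943).

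Against their own unstimulated controls, AOA-treated cells raised all 4 members and cells with AOA and aspartate raised 3. HT-DNA+AOA against AOA called 6.46% of all genes higher and 6.98% lower. Ifit1 rose by 10.42 (SE 0.194), Ifit3 by 8.18 (SE 0.272), Ifit3b by 6.84 (SE 0.295) and Ifit2 by 2.45 (SE 0.2) on the log2 scale, with edgeR adjusted p from 4.54e-18 to 4.64e-08. Ifit1 had 8, Ifit3 11 and Ifit3b 10 counts over the 3 AOA libraries, so the sizes of their changes are loose. With 1 library left out, they were 10.06 to 10.90 for Ifit1, 7.77 to 9.11 for Ifit3 and 6.57 to 7.08 for Ifit3b. The highest value of Ifit3 was the one without AOA replicate 3. HT-DNA+AOA+Asp against AOA+Asp called 1.93% of all genes higher and 1.52% lower. Ifit1 rose by 7.93 (SE 0.178) and Ifit3 by 5.51 (SE 0.271). The mean level of Ifit3b was 30.7 times the limit that the 0 counts of AOA+Asp allow. Ifit2 had a log2 fold change of 0.63 (SE 0.184) and an edgeR adjusted p of 0.0697, although its groups did not overlap, and DESeq2 called it (adjusted p = 0.0221).

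In stimulated cells, AOA raised all 4 members, where 22.8% of all genes tested were called higher and 22.7% lower. Ifit1 reached 214.1, 177.0 and 181.7 CPM in HT-DNA+AOA and Ifit3 66.2, 48.0 and 51.8 CPM. Ifit3b was at 26.5, 16.8 and 16.1 CPM and Ifit2 at 54.4, 30.0 and 31.6 CPM. For each member the lowest HT-DNA+AOA library was above the highest HT-DNA library. Relative to HT-DNA, Ifit3b rose 4.54-fold (log2 fold change 2.18, SE 0.185), Ifit3 3.58-fold (1.84, SE 0.149), Ifit1 2.9-fold (1.53, SE 0.0958) and Ifit2 2.23-fold (1.15, SE 0.182), with edgeR adjusted p from 3.36e-10 to 3.9e-05. The HT-DNA+AOA libraries differed more among themselves than those of any other group, with a chi-square per degree of freedom over genes of 18.2 to 67.0 between pairs of libraries against 2.78 to 13.3 in the other groups. Replicate 1 of HT-DNA+AOA was the highest library for every member, and most so for Ifit2. Without it, the log2 fold change of Ifit2 was 0.82 (edgeR adjusted p = 1.21e-05). Summed leukocyte markers ranged from 112.2 to 127.1 CPM with HT-DNA and from 139.0 to 156.2 CPM with HT-DNA+AOA, nearly all of it Cd68, with Ptprc, Adgre1 and Cd3e at 0. Summed fibroblast markers ranged from 6344 to 6907 CPM and from 4769 to 6442 CPM in the same groups. Their part in the result was not tested.

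Aspartate lowered all 4 members in stimulated, AOA-treated cells, where 23.9% of all genes tested were called lower and 23.7% higher. In HT-DNA+AOA+Asp, Ifit1 was at 72.4, 73.3 and 70.4 CPM, Ifit3 at 14.7, 14.1 and 13.6 CPM, Ifit3b at 4.5, 3.7 and 4.5 CPM, and Ifit2 at 23.0, 25.1 and 26.99 CPM. None of these libraries overlapped with HT-DNA+AOA. On the log2 scale Ifit3b fell by 2.23 (SE 0.186), Ifit3 by 1.97 (SE 0.151) and Ifit1 by 1.41 (SE 0.0954), with edgeR adjusted p from 1.6e-09 to 6.85e-08. Ifit2 fell by 0.63 (SE 0.178, edgeR adjusted p = 0.00727). The size of the Ifit2 change rested on replicate 1 of HT-DNA+AOA, and without that library it was -0.30 with an adjusted p of 0.0471. With only the libraries of these 2 groups fitted, Ifit2 was not called (adjusted p = 0.0549).

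Set against HT-DNA without AOA, the combined treatment left Ifit1, Ifit3 and Ifit3b near the HT-DNA level, and Ifit2 above it. HT-DNA+AOA+Asp against HT-DNA called 23.2% of all genes higher and 23.5% lower. The log2 fold change was 0.13 for Ifit1 (SE 0.0953), -0.13 for Ifit3 (SE 0.154) and -0.04 for Ifit3b (SE 0.197), none of them called (edgeR adjusted p from 0.288 to 0.871). Ifit2 was 0.53 higher (SE 0.183, edgeR adjusted p = 0.0256). This call was lost when replicate 1 or 3 of HT-DNA, or replicate 2 or 3 of HT-DNA+AOA+Asp, was left out (adjusted p from 0.0577 to 0.137).

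**Figure D3:**
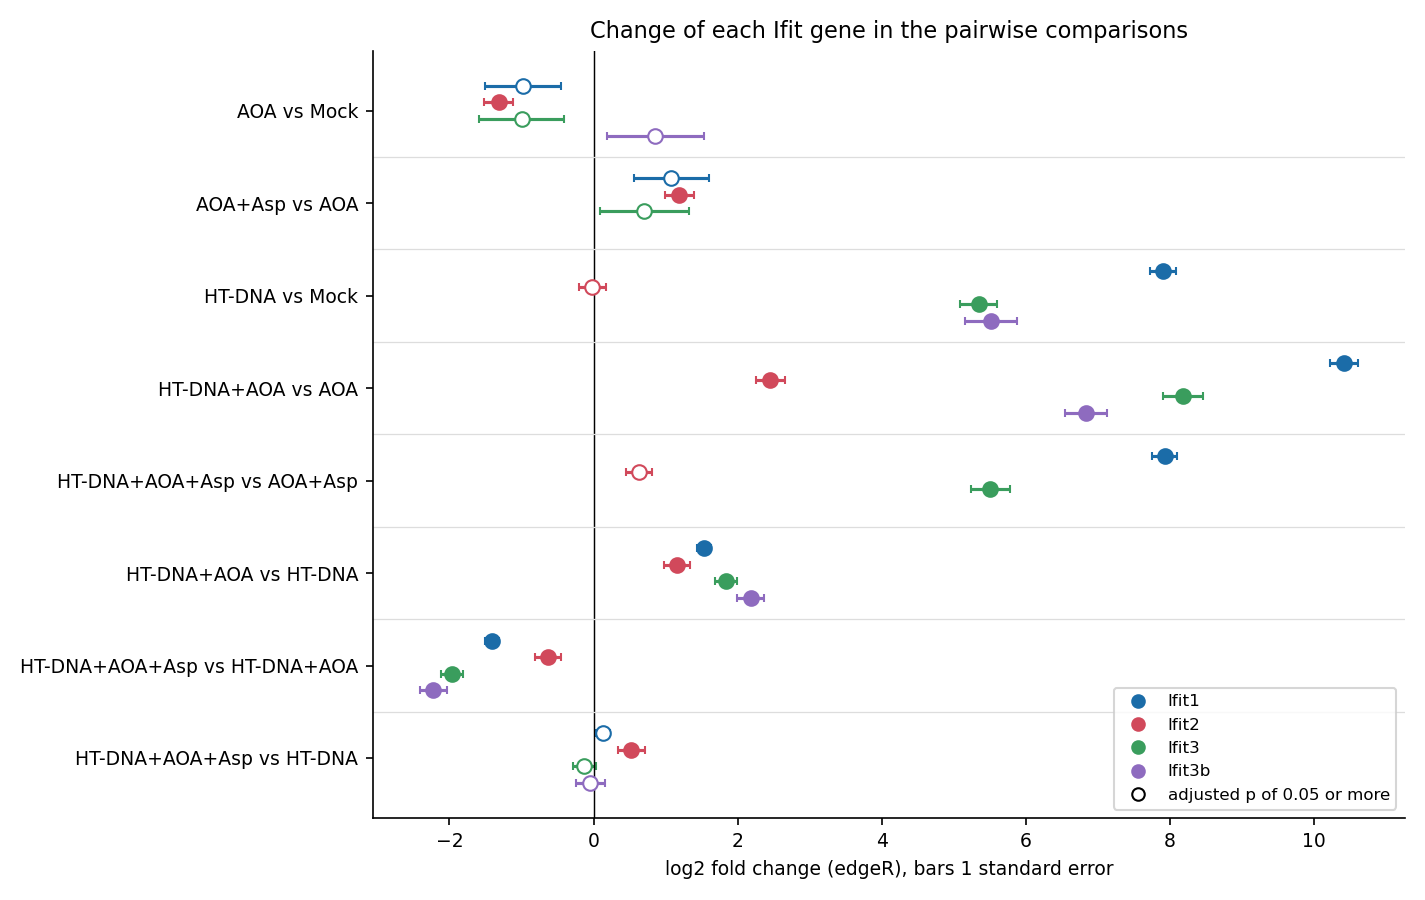
log2 fold change (edgeR, bars 1 SE) of each Ifit gene in 8 pairwise comparisons, filled where the adjusted p was under 0.05. Ifit3b is not drawn against AOA+Asp, where it had 0 counts. Ifit2 lies near 0 for HT-DNA against Mock, where the other members lie above 5.

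The order of the groups was thus shared by 3 members and different for Ifit2. For Ifit1, Ifit3 and Ifit3b, HT-DNA+AOA stood highest, HT-DNA and HT-DNA+AOA+Asp followed with a difference that was not called, and the 3 unstimulated groups stood at the bottom. For Ifit2, HT-DNA+AOA (38.7 CPM ± 13.7) was followed by HT-DNA+AOA+Asp (25.0 ± 2.01), then by Mock (17.6 ± 1.35), HT-DNA (17.4 ± 4.25) and AOA+Asp (16.1 ± 0.684), whose ranges overlapped, and last by AOA (7.08 ± 0.393). The step between HT-DNA+AOA+Asp and HT-DNA was not called in every fit with 1 library left out. Over the 18 libraries, the correlation of log2 CPM (prior count 2) was 0.97 to 0.99 among Ifit1, Ifit3 and Ifit3b and 0.67 to 0.75 between Ifit2 and each of them. These values describe points that share libraries and 6 treatments, and for 3 of the genes the stimulated libraries lie far above the others.

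A difference between the AOA effects in stimulated and unstimulated cells was called for 3 members, of which only Ifit2 had a sizeable unstimulated level. Ifit1 and Ifit3 had at most 12 counts in any unstimulated library, so the size of their difference is loose. As the difference between the AOA effect with HT-DNA and without it, an interaction term was fitted, which called 7.23% of all genes higher and 8.26% lower. It was 2.51 for Ifit1 (SE 0.539, edgeR adjusted p = 0.00583), 2.47 for Ifit2 (SE 0.273, edgeR adjusted p = 1.84e-05) and 2.84 for Ifit3 (SE 0.606, edgeR adjusted p = 0.00568) on the log2 scale. When 1 library was left out, the value of Ifit3 ranged from 2.43 to 3.77, the highest without AOA replicate 3, and it was called each time. Among the 4 members, only Ifit2 had both parts called, a fall with AOA in unstimulated cells and a rise in stimulated ones. Ifit3b had an interaction of 1.32 (SE 0.797, edgeR adjusted p = 0.26). Summed with Ifit3 it was 2.31 (adjusted p = 0.00779).

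For aspartate the interaction was the difference between its effect with HT-DNA and without it, both in AOA-treated cells, and it called only 0.266% of all genes higher and 0.785% lower. Ifit1 (-2.49, SE 0.53, edgeR adjusted p = 0.0262) and Ifit2 (-1.82, SE 0.271, edgeR adjusted p = 0.00135) were among the genes called lower. Ifit1 lost its call without AOA replicate 1 or 2 or without any single AOA+Asp library (adjusted p from 0.0561 to 0.1), all libraries in which it had at most 7 counts. Ifit3 was at -2.67 (SE 0.645) with an edgeR adjusted p of 0.0515, and DESeq2 called it (adjusted p = 0.000401). Without AOA replicate 3 it was -3.60 and was called (edgeR adjusted p = 0.0149). Ifit3b was at 2.62 (edgeR adjusted p = 0.462), a value set by its 0 counts in AOA+Asp, and the sum with Ifit3 was at -1.83 (adjusted p = 0.181).

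Stimulation changed which gene dominated the family. Per kb, Ifit1 rose from 2.11% ± 0.978 of the summed level in Mock to 61.7% ± 1.55 with HT-DNA, and Ifit2 went from 92.5% to 10.9% ± 1.63. The sum per kb was 40.3 CPM ± 4.15 with HT-DNA, 123.3 ± 19.5 with HT-DNA+AOA and 43.7 ± 0.268 with HT-DNA+AOA+Asp. Ifit3 made up 21.99% ± 0.613, 25.7% ± 0.603 and 18.5% ± 0.659 in these 3 groups, and its ranges did not overlap. Ifit3b made up 5.46% ± 0.722, 7.93% ± 1.06 and 4.84% ± 0.545, and Ifit2 10.9%, 7.83% ± 1.46 and 14.6% ± 1.23.

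**Figure D4:**
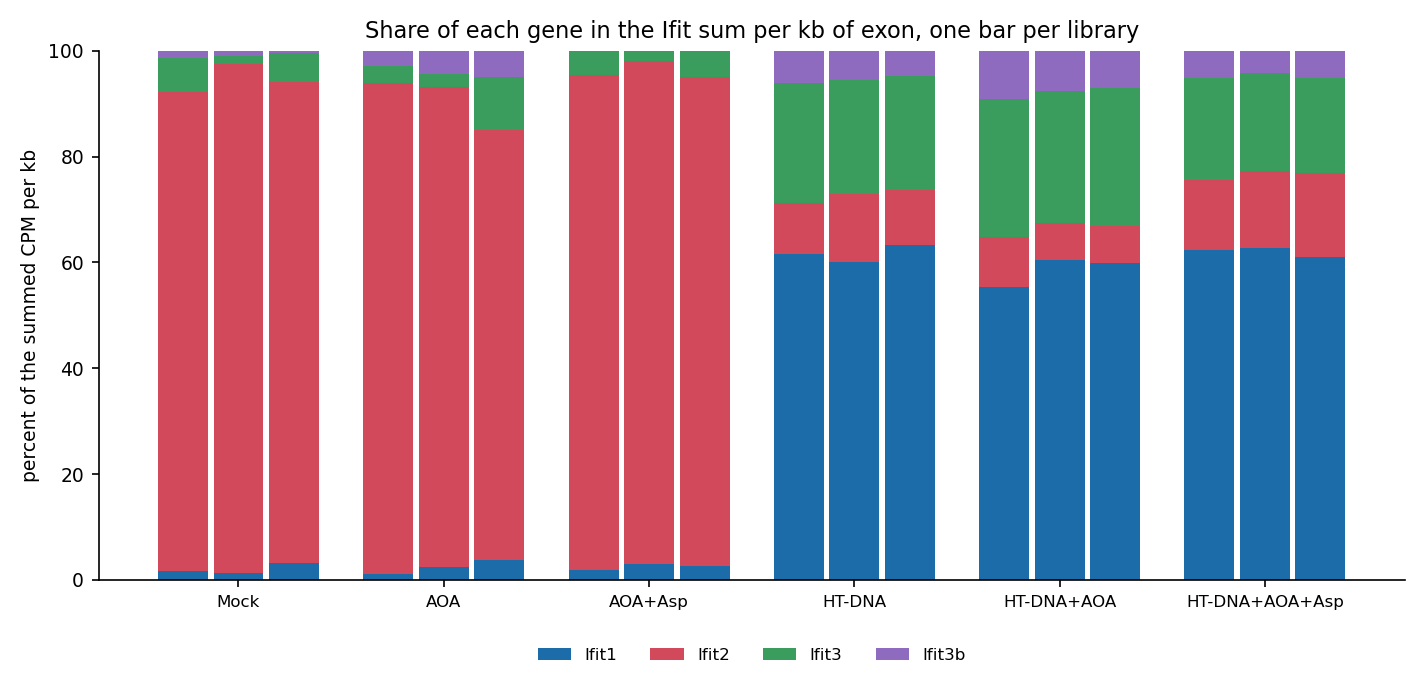
Percent of the summed CPM per kb of exon that each Ifit gene takes, 1 stacked bar for each of the 18 libraries. Ifit2 fills 81.4% to 96.2% of every unstimulated bar, and Ifit1 fills 55.3% to 63.3% of every stimulated one.

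Log2 ratios of the members' counts within a library, which need no scaling of libraries, describe how far the genes moved relative to each other. Ifit3 to Ifit1 stood at -2.09 ± 0.0543 with HT-DNA, -1.80 ± 0.0953 with HT-DNA+AOA and -2.35 ± 0.0422 with HT-DNA+AOA+Asp, and no 2 of these groups overlapped. Ifit3b to Ifit1 rose from -3.91 ± 0.218 to -3.30 ± 0.255 with AOA and was at -4.09 ± 0.183 with aspartate. Ifit2 to Ifit1 was at -1.95 ± 0.236 with HT-DNA, -2.35 ± 0.327 with HT-DNA+AOA and -1.53 ± 0.137 with HT-DNA+AOA+Asp, and the first 2 of these groups overlapped (exact permutation p = 0.3). Ifit2 to Ifit3 went from 0.15 ± 0.242 to -0.56 ± 0.239 with AOA and to 0.82 ± 0.173 with aspartate, again with no overlap. Ifit3b to Ifit3 was at -1.82 ± 0.164, -1.50 ± 0.183 and -1.74 ± 0.171, and these groups overlapped. With 3 libraries against 3 the smallest two-sided exact permutation p is 0.1, so no ratio can pass 0.05 and no difference in ratio is shown. Of the 18 tests (6 ratios in 3 comparisons), those with no overlap had that p of 0.1, or 0.138 after Benjamini-Hochberg adjustment.

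Ifit3 and Ifit3b cannot be fully separated in these counts. Their longest transcripts were 97.8% identical over 1700 aligned bases, and 61.8% of the 31-base sequences of Ifit3 and 54.1% of those of Ifit3b occurred in the other. Of all nonzero values in the deposited data, 32.9% were not whole numbers, as can happen where a program shares reads between genes. The share for these 2 genes was not counted. As a single quantity, Ifit3 and Ifit3b together stood at 19.8 CPM ± 1.44 with HT-DNA, 75.1 ± 15.3 with HT-DNA+AOA and 18.4 ± 0.722 with HT-DNA+AOA+Asp. The sum rose by 1.92 with AOA (SE 0.143, edgeR adjusted p = 3.56e-09) and fell by 2.03 with aspartate (SE 0.144, edgeR adjusted p = 2.86e-09) on the log2 scale. Ifit1 shared 9.2% of its 31-base sequences with Ifit1bl2 and 5.2% with Ifit1bl1, and Ifit2 shared 0% with any gene.

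The Ifit1-like genes of the same cluster were nearly silent. Ifit1bl1 had 3, 2 and 2 counts in HT-DNA+AOA, 0, 0 and 1 in HT-DNA+AOA+Asp and 0 in the other groups, under the limit for a fold. Ifit1bl2 had 6, 11 and 15 counts with HT-DNA, 18, 16 and 12 with HT-DNA+AOA and 15, 9 and 6 with HT-DNA+AOA+Asp, against 1 count over the 3 Mock libraries. The ratio of HT-DNA to Mock was 33.6, with an exact 95% counting interval of 5.61 to 1366. Its reads could in part be those of Ifit1, with which it shares sequence.

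With HT-DNA against Mock, which called 24.2% of all genes tested higher and 24% lower, 0 of the tested genes beside the cluster were called higher. Among them 1 was called lower (Lipa, log2 fold change -0.41, edgeR adjusted p = 6.05e-05). Of the 3 protein-coding neighbours on each side (Fas, Ch25h and Lipa before, Slc16a12, Pank1 and Kif20b after), Ch25h was at 0 in every library, Slc16a12 did not pass the filter, and the other 4 were tested. With AOA in stimulated cells Lipa, a lysosomal lipase, fell by 0.80, Pank1, a coenzyme A synthesis enzyme, by 1.02 and Kif20b, a kinesin, by 0.66 on the log2 scale, and Fas, a death receptor, rose by 2.66, all 4 called by edgeR. The same 4 directions were called with AOA in unstimulated cells. AOA called 22.8% of all genes tested higher and 22.7% lower in stimulated cells, and 22.4% and 23.3% in unstimulated ones.

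In the interferon pathway list of 32 genes, 27 were tested. The ligands were at the limit of detection. Ifnb1, which encodes interferon-beta, had 6, 4 and 2 counts in HT-DNA+AOA, 1 count in HT-DNA+AOA+Asp and 0 in every other library. Among the other direct targets of interferon signaling, 10 of 11 tested rose with HT-DNA against Mock (median log2 fold change 4.03, against -0.01 over all genes tested), 11 of 11 rose with AOA in stimulated cells (median 1.90) and 11 of 11 fell with aspartate (median -2.32). Isg15, a ubiquitin-like modifier, went from 1.25 CPM ± 0.22 in Mock to 48.3 ± 4.79 with HT-DNA, 123.7 ± 27.9 with HT-DNA+AOA and 35.6 ± 4.31 with HT-DNA+AOA+Asp. Rsad2 (viperin), an antiviral enzyme, rose by 6.26 with HT-DNA and by a further 2.30 with AOA on the log2 scale. The changes of Ifit1, Ifit3 and Ifit3b with AOA and with aspartate in stimulated cells lay inside the range of these targets. With HT-DNA against Mock, Ifit1 (7.90) lay above the highest of them, Rsad2. In Mock libraries Ifit1 had at most 9 counts and Rsad2 at most 6, so the order of these 2 genes is loose.

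All 5 transcription factors of the pathway rose with AOA in stimulated cells (median 1.42) and fell with aspartate (median -1.48), and 4 of 5 rose with HT-DNA against Mock (median 0.70). Irf7, which amplifies interferon production, went from 2.42 CPM ± 0.0685 in Mock to 4.83 ± 0.247 with HT-DNA, 24.3 ± 4.12 with HT-DNA+AOA and 3.87 ± 0.115 with HT-DNA+AOA+Asp. Stat2 (-0.89) and Irf1 (-0.71) fell with AOA in unstimulated cells, as Ifit2 did, and both came back with aspartate. Across the whole list, the median with AOA in unstimulated cells was -0.02, against 0.02 over all genes tested. Of its 27 tested genes, 5 rose and 9 fell, where 22.4% of all genes tested were called higher and 23.3% lower. Those that fell included Tbk1 (-0.76), Cgas (-0.49), Sting1 (-0.95) and Socs3 (-1.58), a feedback inhibitor of cytokine signaling. Of the 11 other direct targets tested, 3 rose, Zbp1 (1.75), Oasl1 (0.87) and Oas1a (0.44), a share near that of all genes tested. The size for Zbp1 is loose, since it had at most 3 counts in any Mock library and 9 in any AOA library. Among these 11 targets 0 were called lower, and the median was 0.33. The interaction of AOA and HT-DNA was called higher for 14 of 27 genes and lower for 0 (median 0.74, against 0.01 over all genes tested), with all 5 transcription factors among the 14. The list was chosen with results of these data known, so its counts are a description.

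**Figure D5:**
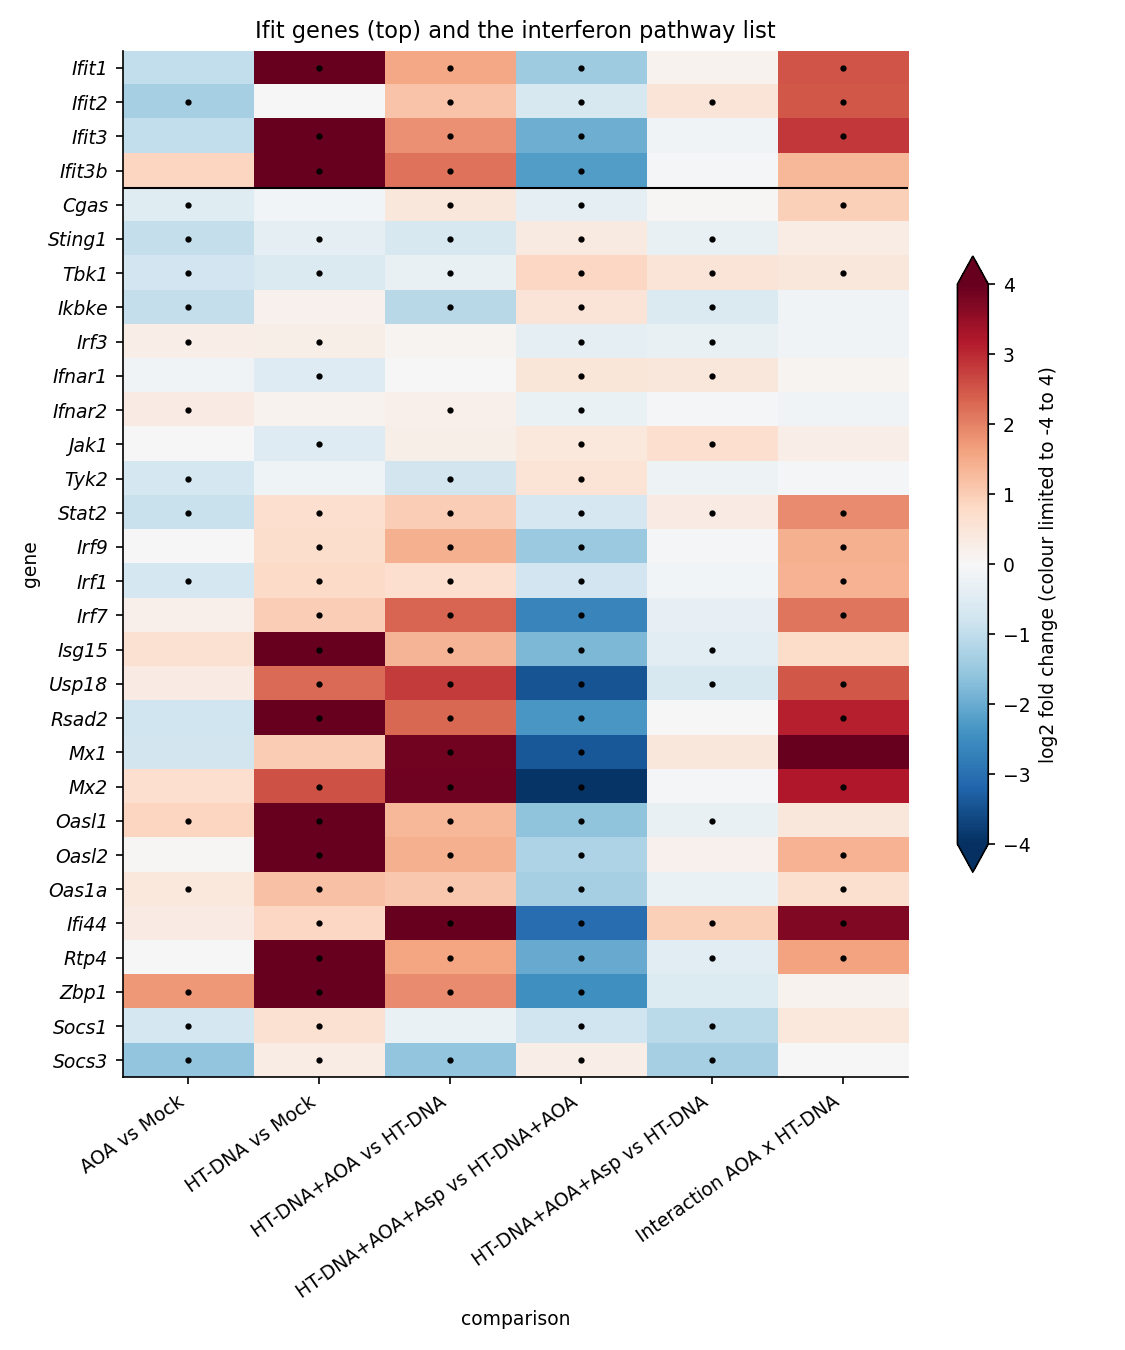
log2 fold change (colour, limited to the range from -4 to 4) of the 4 Ifit genes and 26 of the 27 tested genes of the interferon pathway list in 5 pairwise comparisons and the interaction of AOA and HT-DNA, with a dot where the edgeR adjusted p was under 0.05. The 4 transcription factors drawn and all 11 other direct targets carry dots for HT-DNA+AOA against HT-DNA.

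The genes whose levels followed each member most closely were different for Ifit2. By Pearson correlation of log2 CPM over the 18 libraries, Oasl2 (r = 0.99), Samd9l (0.98) and Gm13822 (0.98) were nearest to Ifit1, and Samd9l (0.99), Ifih1 (0.98) and Rtp4 (0.98) to Ifit3. Apol9a, Rtp4 and Cxcl10 (each 0.99) were nearest to Ifit3b. Calcrl (0.92), Stat2 (0.92) and Mitd1 (0.91) were nearest to Ifit2. Calcrl is a receptor for peptides of the calcitonin family. It went from 76.6 CPM ± 1.6 in Mock to 49.1 ± 5.66 with AOA and 63.7 ± 4.54 with AOA+Asp. It stood at 64.7 ± 7.72 with HT-DNA, 86.6 ± 10.8 with HT-DNA+AOA and 74.9 ± 3.08 with HT-DNA+AOA+Asp. Unlike that of Ifit2, its fall with aspartate in stimulated cells was not called (edgeR adjusted p = 0.0884). Cxcl10, a chemokine, went from 30.9 CPM ± 0.332 with HT-DNA to 266.5 ± 28.2 with HT-DNA+AOA and 26.7 ± 1.31 with HT-DNA+AOA+Asp.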

How the data were processed

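The 18 L929 libraries (6 groups of 3) were made from TRIzol-extracted RNA, and Majorbio did the sequencing, per the paper. The authors deposited estimated counts (expected counts) of reads per gene without normalization, of which 11.6% were not whole numbers. Aligner, counting program, strand setting, genome build and test were not given in the sources used here. The 6 columns of group means were checked against the libraries and not used. Groups came from the sample labels.

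Counts were rounded and fitted in R 4.3.3 with edgeR 4.0.16 (filterByExpr with minimum count 10 and minimum total 15, TMM, robust quasi-likelihood test, 1 coefficient per group, all libraries in 1 fit). The design assumed whole counts, and estimated ones were used in the same test. The edgeR p-values rest on a spread estimated per gene over all 6 groups of 3 cultures, and not on the groups compared alone. As the HT-DNA+AOA libraries differed most among themselves, the shared spread may be too small for comparisons with that group. Intervals and the limit of 3 counts that a count of 0 allows cover counting error only. The steps were tested on simulated data. GENCODE vM21 gave exon lengths and shared 31-base sequences, and RefSeq (GRCm38.p6) gave promoters. These may differ from the annotation the authors used.

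The named genes were the 4 members, both Ifit1-like genes, 32 interferon pathway genes, 3 neighbours per side, the 3 most correlated genes per member and 25 cell type markers. Members and lists were chosen with earlier results of these data known. Alternatives were DESeq2 1.42.0, RLE, library totals, other filters, only the libraries compared, a replicate block, each library left out, Ifit3 and Ifit3b summed, and a prior count of 2 in place of 0.5 for ratios. No protein sequences were used here, and 1 gene of the pathway list is counted but not reported here.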

Additional observations from a re-analysis of the deposited data

Results flagged for a closer look

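A total of 5 results were singled out because the effect of a treatment differed between stimulated and unstimulated cells by the interaction term of the model, all on the log2 scale. For AOA the difference between its effect with HT-DNA and without it was 2.51 for Ifit1, 2.47 for Ifit2 and 2.84 for Ifit3, with edgeR adjusted p of 0.00583, 1.84e-05 and 0.00568. Ifit2 was the member with the most counts in unstimulated cells, 129 to 418 per library, whereas Ifit1 and Ifit3 had 1 to 12 counts there. For aspartate in AOA-treated cells it was -2.49 for Ifit1 and -1.82 for Ifit2, with edgeR adjusted p of 0.0262 and 0.00135. The search for single outlying libraries was not applied to groups of 3.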

How the results depend on the processing

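Of the 27 calls of a member in a comparison, all 27 were kept with RLE, library totals, no filter on low counts, DESeq2 and the replicate block. Library totals shifted the median log2 fold change of all genes to -0.12 for AOA and for HT-DNA against Mock. With at least 10 counts in every library only Ifit2 could be tested, and the number of members called was then 1 for AOA+Asp vs AOA, HT-DNA+AOA vs AOA, HT-DNA+AOA vs HT-DNA, HT-DNA+AOA+Asp vs HT-DNA+AOA and both interactions, and 0 for HT-DNA vs Mock and HT-DNA+AOA+Asp vs AOA+Asp. With only the libraries compared, 25 of the 26 calls that could be computed were kept, and the number was 1 for AOA+Asp vs AOA. With 1 library left out, members called ranged from 1 to 2 for AOA vs Mock, from 0 to 1 for HT-DNA+AOA+Asp vs HT-DNA and from 1 to 3 for the aspartate interaction. The cause was not tested.

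Signs turned only for values that were not called or for Ifit3b at a few counts. Summing Ifit3 and Ifit3b gave -0.39 for AOA vs Mock, -0.20 for AOA+Asp vs AOA and -1.83 for the aspartate interaction. Library totals gave 0.0067 for Ifit3b in HT-DNA+AOA+Asp vs HT-DNA. Leaving out 1 library moved that value between -0.13 and 0.042, Ifit2 in HT-DNA vs Mock between -0.22 and 0.13, and in AOA+Asp vs Mock Ifit1 between -0.11 and 0.55 and Ifit3 between -0.68 and 0.017.

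Replicate numbers were not used as pairs in the main fit. Deviations of same-numbered libraries correlated at -0.10 to 0.28, and no comparison had all its pairs over 0.1. In HT-DNA+AOA vs AOA all pairs were positive (0.07 to 0.28). Libraries with different numbers were not compared, so this check cannot decide whether same-numbered libraries share a batch. With the replicate block, 4 members were called for HT-DNA+AOA vs HT-DNA, as without it. Depth limits Ifit1, Ifit3 and Ifit3b in unstimulated cells, where 12 counts was the most in any library.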
